A study of Arabidopsis thaliana with 32 samples.

Results

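The 7 genes described here encode oxidoreductases that act, or are thought to act, on foreign and reactive compounds in Arabidopsis thaliana. They are the oxophytodienoate reductase genes OPR1 (AT1G76680) and OPR2 (AT1G76690), the cytochrome P450 genes CYP81D8 (AT4G37370) and CYP81D11 (AT3G28740), the aldo-keto reductase family genes AT1G60730 and AT1G60750, and AT1G64590, which encodes a short-chain dehydrogenase with an NAD(P)-binding fold. They were chosen by their locus codes, with earlier results of these data known. All 7 were found among the 3443 genes that the 4 deposited tables list. All 7 are listed in Col-0, d14 and max2, and 6 of the 7 in kai2, where CYP81D8 is not listed and was not analysed here.

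Plants take up many lipophilic compounds that they cannot use, and dispose of them in steps. Oxidoreductases first add or expose a reactive group, glutathione transferases and glycosyltransferases then attach glutathione or a sugar, and transporters move the product to the vacuole or out of the cell. OPR1 and OPR2 are flavoproteins of the old yellow enzyme family that reduce the double bond next to a carbonyl group, while the related OPR3 carries out that step in jasmonate synthesis. CYP81D11 is known as a gene induced by cis-jasmone and by xenobiotics, through TGA transcription factors that bind a motif called as-1.

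Roots of 5-week-old plants kept in hydroponics were harvested 6 h after 20 µM zaxinone in 1% acetone was given, or 1% acetone alone as mock treatment, and each group has 4 libraries. Zaxinone is an apocarotenoid, a small cleavage product of carotenoids. Besides wild type Col-0 there were 3 mutants, d14, kai2 and max2, with alleles that the labels do not name. D14 is the receptor of strigolactones and KAI2 its paralog in karrikin signalling, and both work with MAX2, an F-box protein. The design sets the zaxinone effect in each mutant beside that in the wild type. The genes named in the genotypes cannot check these labels here, since D14 and MAX2 are listed in no table and KAI2 in the kai2 table only.

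Library depth was 42.8 to 101.9 M fragments (M, mega), and Col-0 was sequenced more deeply than the mutants. The shallowest Col-0 library, at 67.6 M, was above the deepest of max2, at 64.1 M. It was below the deepest of d14 (73.9 M) and of kai2 (68.8 M), so those ranges overlapped. Comparisons between genotypes were scaled by library totals, and whether depth affected them further was not tested. A table lists a gene where the authors' adjusted p was under 0.05 and the absolute log2 fold change at least 1, so a listed gene had to differ between zaxinone and mock in that genotype. Of 9 root marker genes 3 were listed, and the same 3 were higher with zaxinone in every genotype. Their summed FPKM (fragments scaled by gene length and library depth) ran from 453 to 956 in mock and 1131 to 2556 in zaxinone libraries of Col-0, from 382 to 421 and 1537 to 3620 in d14, from 396 to 664 and 1953 to 4776 in kai2, and from 531 to 846 and 1801 to 3438 in max2. Nearly all of that sum was PYK10, a root β-glucosidase, and the part of these markers in the results below was not tested. Of 8 shoot and photosynthesis markers 1 was listed in Col-0 (LHCB2.3), 1 in d14 (RBCS2B), 2 in kai2 (RBCS2B and CAB3) and 0 in max2. LHCB2.3 was higher with zaxinone in Col-0, while RBCS2B was lower in d14 and kai2 and CAB3 lower in kai2. The listed markers are thus different genes in Col-0 and in the mutants, and no opposite response of the same marker is shown. Their summed FPKM ran from 0.263 to 0.519 in mock and 0.800 to 1.14 in zaxinone libraries of Col-0, from 0.0435 to 0.340 and 0.0 to 0.0197 in d14, and from 0.0623 to 1.94 and 0.0119 to 0.172 in kai2. Their part in the results was not tested, and RBCS2B was at 0 in all kai2 zaxinone libraries. In whole roots, fewer cells of a type and less RNA per cell cannot be told apart.

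The sequences that bear on how alike and how separate these genes are come first. OPR1 (chr1:28776626-28778837, plus strand) and OPR2 (chr1:28778622-28780483, plus strand) stand head to tail in TAIR10.1, and their RefSeq gene models overlap by 216 bases, none of them coding in OPR1 or OPR2. Their coding sequences were identical at 91.7% of aligned bases, with a longest shared run of 114 bases. The best local alignment of the 250 bases before each start paired 130 bases, of which 104 were identical, and held 61 gap positions. Those windows shared 2 exact runs of 16 bases and none longer. The run farther from the starts stands in capitals within 30 bases on the plus strand, at chr1:28776398-28776427 for OPR1 and chr1:28778440-28778469 for OPR2.
OPR1: ttattacTTCTGTTTGATGTGATaatgccg
OPR2: tgttgatTTCTGTTTGATGTGATcatgccg
The OPR2 stretch lies inside the 3′ untranslated region of OPR1. How the authors assigned read pairs that fit both genes is not given in the sources used here, so the levels of OPR1 and OPR2 are uncertain to the extent that they share reads.

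AT1G60730 (chr1:22357976-22360277, minus strand) and AT1G60750 (chr1:22362293-22363854, minus strand) lie close together, and their coding sequences shared 81.3% of aligned bases with a longest run of 46 bases. A further gene, ATB2, shared 89.2% with AT1G60730 (longest run 49 bases) and 79.1% with AT1G60750 (23 bases). The levels of AT1G60730 and AT1G60750 are likewise uncertain to the extent that similar genes share reads. The RefSeq model of AT1G60750 is marked partial and holds coding exons only, 993 bases long, so its FPKM rests on that length. CYP81D8 (chr4:17569740-17571743, minus strand) and CYP81D11 (chr3:10788698-10790553, minus strand) are on different chromosomes and shared 70.2%. AT1G64590 is at chr1:23993477-23995509 on the plus strand. CYP81D11 overlaps AT3G28730, on the other strand, by 32 bases, and OPR2 overlaps AT1G76700, also on the other strand. Strand use in the libraries is not settled by the labels, so reads from those overlaps could belong to either gene.

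The promoter window of CYP81D11 is shown because it was the only 1 of the 7 windows that held the core of the as-1 motif, TGACG. It is chr3:10790554-10790803 of TAIR10.1, read 5′ to 3′ on the minus strand up to the gene start. Capitals mark TGACG, whose farthest base is 231 bases before the start, and the G-box CACGTG at 205 bases.
CYP81D11: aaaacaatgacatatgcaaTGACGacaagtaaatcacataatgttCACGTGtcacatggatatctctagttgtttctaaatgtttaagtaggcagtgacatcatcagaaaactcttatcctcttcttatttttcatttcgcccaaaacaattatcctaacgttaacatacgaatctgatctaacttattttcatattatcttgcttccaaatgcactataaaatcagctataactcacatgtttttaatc
Both strands were searched. TGACG occurred in 18.6% of the windows of all 27443 genes with such a window. The G-box was in 2 of the 7 windows, those of CYP81D8 and CYP81D11, against 6.49% of all genes. Its inner part ACGTG, which the G-box contains, was in 3 of 7, with AT1G60730 added, against 22.9%. A match describes the letters of the window only.

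The window of AT1G64590 is shown because its response differed most clearly between genotypes, as described below. It is chr1:23993227-23993476 on the plus strand, and none of the 3 motifs occurs in it.
AT1G64590: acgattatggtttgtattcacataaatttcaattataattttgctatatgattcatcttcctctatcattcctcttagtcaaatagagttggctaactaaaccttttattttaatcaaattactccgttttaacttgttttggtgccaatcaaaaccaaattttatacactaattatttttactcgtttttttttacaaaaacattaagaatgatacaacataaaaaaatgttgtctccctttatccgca

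Zaxinone raised every listed member in every genotype. All 27 values of a member in a table were higher with zaxinone, and in all 27 the 4 zaxinone libraries lay above the 4 mock libraries. Every listed gene had passed the authors' limits on these same libraries. The share of all listed genes with such a separation was not computed, so it is not shown to be particular to the members. By the authors' deposited calls, 3.74% of the genes tested were higher in Col-0, 5.94% in d14, 4.16% in kai2 and 3.57% in max2, while members were listed as higher at 7 of 7, 7 of 7, 6 of 7 and 7 of 7. No member was listed as lower, where 3.59%, 3.51%, 3.28% and 2.6% of genes were. A gene is listed only where it changed, and the members were chosen with earlier results of these data known. The counts above and the medians below thus describe the 7 genes and are no test of these enzyme families. The median deposited log2 fold change of the listed members was 2.95 in Col-0, 3.98 in d14, 3.32 in kai2 and 3.24 in max2. For all genes listed as higher it was 1.60, 1.68, 1.54 and 1.60 in that order. The kai2 median covers 6 members, since CYP81D8 is not listed there, so the medians do not rank the genotypes. Other library scales kept the direction of all 27, although scaling by the listed genes alone shifted the median log2 fold change of all listed genes by as much as -1.02, in d14 with DESeq2. Below, log2 fold changes are edgeR estimates ± SE from 4 against 4 libraries.

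**Figure D1:**
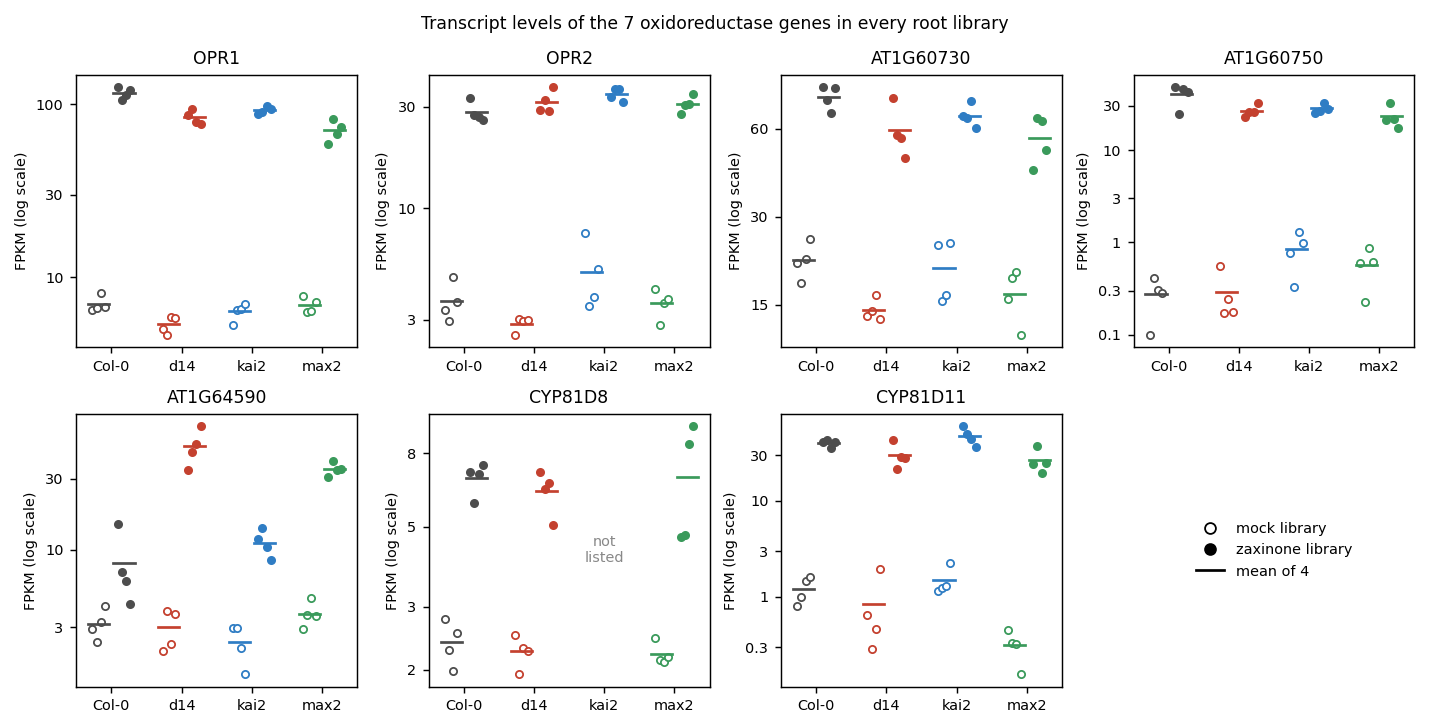
FPKM of each gene in every library on a log axis, open circles for mock and filled circles for zaxinone, with bars at the mean of 4 libraries. Every filled group lies above its open group, and the filled points of AT1G64590 separate Col-0 and kai2 (4.31 to 14.9) from d14 and max2 (30.8 to 67.8).

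OPR1 had the highest mean level with zaxinone among the members listed in each genotype. In Col-0 its FPKM was 6.49, 6.65, 8.14 and 6.73 in the mock libraries and 126, 107, 113 and 121 with zaxinone. In d14 the mock libraries had 5.06, 4.64, 5.90 and 5.81 and the zaxinone libraries 86.3, 93.9, 79.4 and 77.0. The 2 treatments were thus more than an order of magnitude apart in the wild type and in d14, with little spread among libraries. In kai2 the values were 5.27, 6.50, 6.58 and 7.04 for mock and 87.8, 89.9, 97.7 and 94.4 for zaxinone. In max2 they were 7.79, 6.33, 6.42 and 7.17 for mock and 59.1, 82.4, 67.1 and 74.2 for zaxinone. The mock libraries of d14 lay below those of Col-0 with no overlap, those of kai2 and max2 overlapped them, and every zaxinone library of Col-0 was above every zaxinone library of the mutants. The log2 fold change of OPR1 was 4.05 ± 0.17 in Col-0, 3.98 ± 0.16 in d14, 3.87 ± 0.14 in kai2 and 3.35 ± 0.17 in max2.

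OPR2, the neighbour of OPR1, reached lower levels that were alike across genotypes. Its mock FPKM was 3.31, 2.96, 4.73 and 3.61 in Col-0 and its zaxinone FPKM 32.9, 27.5, 26.9 and 25.9. In d14 mock libraries gave 2.54, 3.02, 2.95 and 2.98, and zaxinone libraries 28.97, 32.2, 28.6 and 37.1. In both genotypes every zaxinone library was several times above every mock library. In kai2 the mock libraries gave 7.66, 3.46, 3.83 and 5.17 and the zaxinone libraries 33.4, 36.5, 36.2 and 31.6. In max2 the values were 4.20, 2.83, 3.59 and 3.76 for mock and 27.8, 30.7, 30.9 and 34.3 for zaxinone. Mock replicate 1 of kai2 was the highest mock library of OPR2, and it was also the mock library of kai2 with the highest RBCS2B and CAB3. OPR2 rose by 2.95 ± 0.20 in Col-0, 3.47 ± 0.15 in d14, 2.78 ± 0.24 in kai2 and 3.10 ± 0.17 in max2 on the log2 scale, and without that kai2 library the estimate in kai2 was 3.05.

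AT1G60750 went from a few counts per library to an abundant transcript, and its rise was the steepest of the 7 genes in Col-0 and d14. Its mock libraries in Col-0 held 9, 34, 24 and 19 counts, or 0.0991, 0.407, 0.307 and 0.283 FPKM, and its zaxinone libraries 4452, 2092, 4578 and 2995 counts, or 48.2, 24.6, 45.3 and 42.3 FPKM. In d14 the FPKM was 0.559, 0.173, 0.244 and 0.177 with mock and 22.6, 25.9, 25.8 and 31.9 with zaxinone. In these genotypes no mock library came within an order of magnitude of a zaxinone library. In kai2 the FPKM was 0.767, 0.332, 1.28 and 0.974 with mock and 25.3, 26.6, 32.6 and 28.1 with zaxinone. In max2 it was 0.591, 0.228, 0.863 and 0.612 with mock and 21.2, 32.4, 21.8 and 17.5 with zaxinone. In kai2 and max2, too, the groups were far apart, and the mock libraries reached higher than in Col-0. The log2 fold change was 7.19 ± 0.38 in Col-0, 6.49 ± 0.34 in d14, 5.07 ± 0.33 in kai2 and 5.33 ± 0.35 in max2. Among genes listed as higher, AT1G60750 had the deposited log2 fold change of rank 3 of 937 in Col-0, 6 of 1468 in d14, 13 of 1025 in kai2 and 5 of 876 in max2.

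AT1G60730, the other aldo-keto reductase gene, was already well expressed in mock roots and rose moderately. Mock FPKM was 20.9, 17.9, 21.5 and 25.3 in Col-0 and zaxinone FPKM 83.4, 75.5, 68.1 and 82.4. Across the mutants its mock libraries ranged from 11.8 to 24.4 and its zaxinone libraries from 43.5 to 76.3. It had the highest mock level of the members listed in each genotype, in every library, and its rise was the most even of the members listed in all 4 tables. The log2 fold change was 1.85 ± 0.16 in Col-0, 2.05 ± 0.17 in d14, 1.73 ± 0.18 in kai2 and 1.77 ± 0.19 in max2, and the deposited values spanned 0.31.

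AT1G64590 was the member whose rise depended most on the genotype. In Col-0 its FPKM was 2.94, 2.41, 3.24 and 4.16 with mock and 14.9, 7.12, 6.12 and 4.31 with zaxinone. In d14 it was 2.08, 3.89, 2.31 and 3.72 with mock and 34.6, 45.4, 51.1 and 67.8 with zaxinone. The mock libraries of the 2 genotypes overlapped, and every zaxinone library of d14 was above every zaxinone library of Col-0. In kai2 the values were 2.99, 2.96, 2.19 and 1.45 with mock and 11.8, 14.04, 10.4 and 8.54 with zaxinone. In max2 they were 2.93, 3.62, 4.71 and 3.58 with mock and 30.8, 39.8, 34.5 and 35.1 with zaxinone. With zaxinone, the libraries of d14 and max2 thus lay above those of Col-0 and kai2 with no overlap. The log2 fold change was 1.35 ± 0.33 in Col-0, 4.05 ± 0.27 in d14, 2.23 ± 0.25 in kai2 and 3.24 ± 0.18 in max2.

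The rise of AT1G64590 in Col-0 leaned on 1 library. Zaxinone replicate 1 stood at 14.9 FPKM, and without it the edgeR estimate was 0.87 with an adjusted p of 0.0642, against 0.0203 with all libraries. Leaving out mock replicate 1 or 2 of Col-0 gave 1.31 and 1.23 with adjusted p of 0.0891 and 0.0910. In d14, kai2 and max2 the rise passed under every alternative run.

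CYP81D11 rose steeply from low mock levels. Its mock FPKM was 0.801, 1.01, 1.46 and 1.60 in Col-0 and its zaxinone FPKM 41.6, 43.6, 35.7 and 41.6. In d14 it was 0.653, 0.287, 0.465 and 1.96 with mock and 43.1, 21.6, 28.5 and 28.2 with zaxinone. Mock replicate 4 of d14 was the highest mock library of that genotype, and the zaxinone libraries were all far above it. In kai2 the values were 1.15, 1.25, 1.31 and 2.25 with mock and 60.03, 50.1, 44.2 and 36.7 with zaxinone. In max2 they were 0.454, 0.335, 0.327 and 0.156 with mock and 24.5, 37.7, 19.4 and 24.8 with zaxinone. Every mock library of max2 was below every mock library of Col-0 and of kai2. The log2 fold change was 5.06 ± 0.25 in Col-0, 5.16 ± 0.55 in d14, 5.01 ± 0.27 in kai2 and 6.39 ± 0.33 in max2, where it had the deposited value of rank 2 of 876. Without mock replicate 4 the estimate in d14 was 6.00.

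CYP81D8 responded weakly beside CYP81D11. In Col-0 its FPKM was 2.77, 2.28, 1.99 and 2.53 with mock and 7.08, 5.81, 6.99 and 7.42 with zaxinone. In d14 it was 2.51, 1.94, 2.30 and 2.26 with mock and 7.09, 6.35, 6.62 and 5.05 with zaxinone. In max2 the mock libraries gave 2.46, 2.13, 2.10 and 2.17 and the zaxinone libraries 4.68, 4.75, 8.49 and 9.50. The zaxinone libraries of max2 fell into a lower and an upper pair, and both pairs were above all mock libraries. The log2 fold change was 1.51 ± 0.19 in Col-0, 1.48 ± 0.17 in d14 and 1.63 ± 0.25 in max2. Scaled by the listed genes only, it no longer passed in d14 with DESeq2 (0.46, adjusted p = 0.122) or in max2 with TMM in edgeR (0.99, adjusted p = 0.0548).

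**Figure D2:**
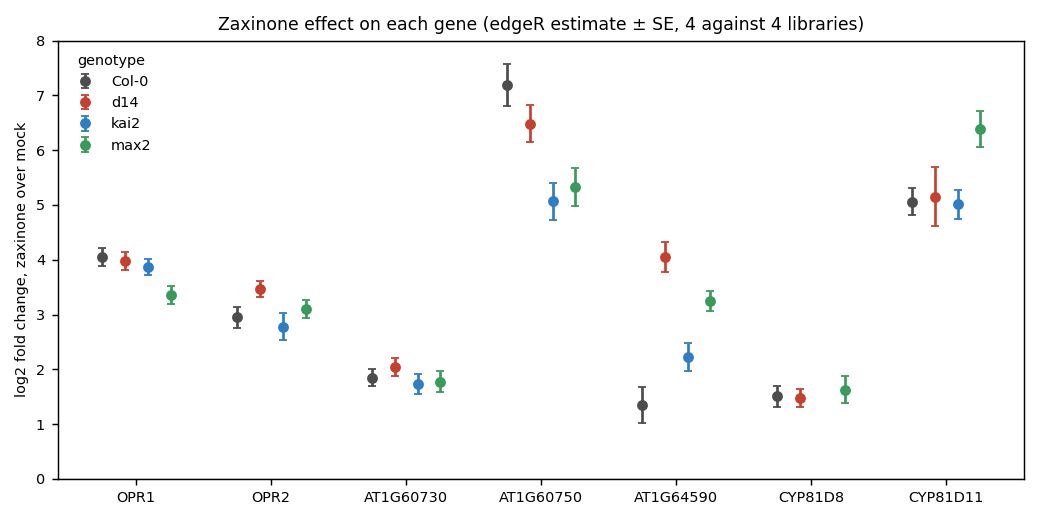
edgeR log2 fold change of zaxinone over mock for each gene, with bars of 1 SE, in the 4 genotypes. AT1G64590 runs from 1.35 in Col-0 to 4.05 in d14 and AT1G60750 from 5.07 in kai2 to 7.19 in Col-0, while the genotypes of AT1G60730 lie between 1.73 and 2.05.

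Whether the zaxinone effect differed between genotypes was tested with an interaction of genotype and treatment in edgeR, fitted to 16 libraries over all genes listed in both tables. The comparisons with Col-0 share its libraries, and so do those with any other genotype in common. Between d14 and Col-0 1 of 7 members differed, where 7.98% of the 1290 genes did. That gene was AT1G64590, whose effect in d14 was larger by 2.70 ± 0.46 on the log2 scale (edgeR adjusted p = 0.00504, 95% interval 1.75 to 3.66). By absolute size this difference was rank 13 of 1290. It passed under all 22 alternatives, and without Col-0 zaxinone replicate 1 it was 3.17.

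Between max2 and Col-0 2 of 7 members differed, where 2.57% of 1049 genes did. The effect on AT1G64590 was larger in max2 by 1.89 ± 0.40 (edgeR adjusted p = 0.00879, interval 1.07 to 2.72), and it too passed under all 22 alternatives. The effect on AT1G60750 was smaller in max2, by -1.86 ± 0.49 (edgeR adjusted p = 0.0457, interval -2.89 to -0.84). That call was lost in 12 of the 16 fits that left out 1 library, with estimates from -2.14 to -1.57. OPR1 had a difference of -0.71 ± 0.20 (edgeR adjusted p = 0.0619) and CYP81D11 one of 1.33 ± 0.37 (edgeR adjusted p = 0.0642). With DESeq2 both passed, at 0.0166 and 0.0186, and they passed under 3 and 5 of the 22 alternatives.

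Between kai2 and Col-0 edgeR called 0 of 6 members and 0 of 1138 genes (0.0%), with 98 genes and 1 member at an unadjusted p under 0.05, while DESeq2 called 18 genes, 1 of them a member. That member was AT1G60750, with an effect smaller in kai2 by -2.13 ± 0.48 (edgeR adjusted p = 0.0692, interval -3.14 to -1.12). Its adjusted p was 0.00296 with DESeq2 and 0.0302 with all libraries in 1 edgeR fit, and it passed under 4 of 22 alternatives. For AT1G64590 the difference between kai2 and Col-0 was 0.87 ± 0.44 with an interval from -0.059 to 1.80, which does not show that the 2 genotypes respond alike.

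Among the mutants, the effect on AT1G64590 was larger in d14 than in kai2 by 1.83 ± 0.37 (edgeR adjusted p = 0.0185, interval 1.06 to 2.61), and this passed under all 22 alternatives. It was the 1 member that edgeR called of 6 in that comparison, where 2.64% of 1324 genes were called. AT1G60750 differed there by 1.42 ± 0.46 (edgeR adjusted p = 0.0989, interval 0.46 to 2.39), and it passed with DESeq2 (adjusted p = 0.0335). In edgeR it passed in 2 of 16 fits without 1 library, those without d14 mock replicate 1 (0.0431) or kai2 mock replicate 2 (0.0255). Between d14 and max2 1 of 7 members was called, against 12.5% of 1220 genes. That was OPR1, with an effect larger in d14 by 0.62 ± 0.19 (edgeR adjusted p = 0.0406), lost with TMM scaling (0.52, adjusted p = 0.0836) and in 10 of 16 fits without 1 library. AT1G64590 differed there by 0.81 ± 0.31 (edgeR adjusted p = 0.0919) and AT1G60750 by 1.15 ± 0.47 (edgeR adjusted p = 0.118). The difference of AT1G60750 passed in 2 of 16 fits without 1 library, those without d14 mock replicate 1 (0.0402) or max2 mock replicate 2 (0.0471). Between kai2 and max2 edgeR called 0 of 6 members, against 2.68% of 1009 genes, with 3 members at an unadjusted p under 0.05 and 2 called by DESeq2. The largest of these were CYP81D11 at -1.38 ± 0.39 (edgeR adjusted p = 0.0740) and AT1G64590 at -1.02 ± 0.30 (edgeR adjusted p = 0.0803).

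**Figure D3:**
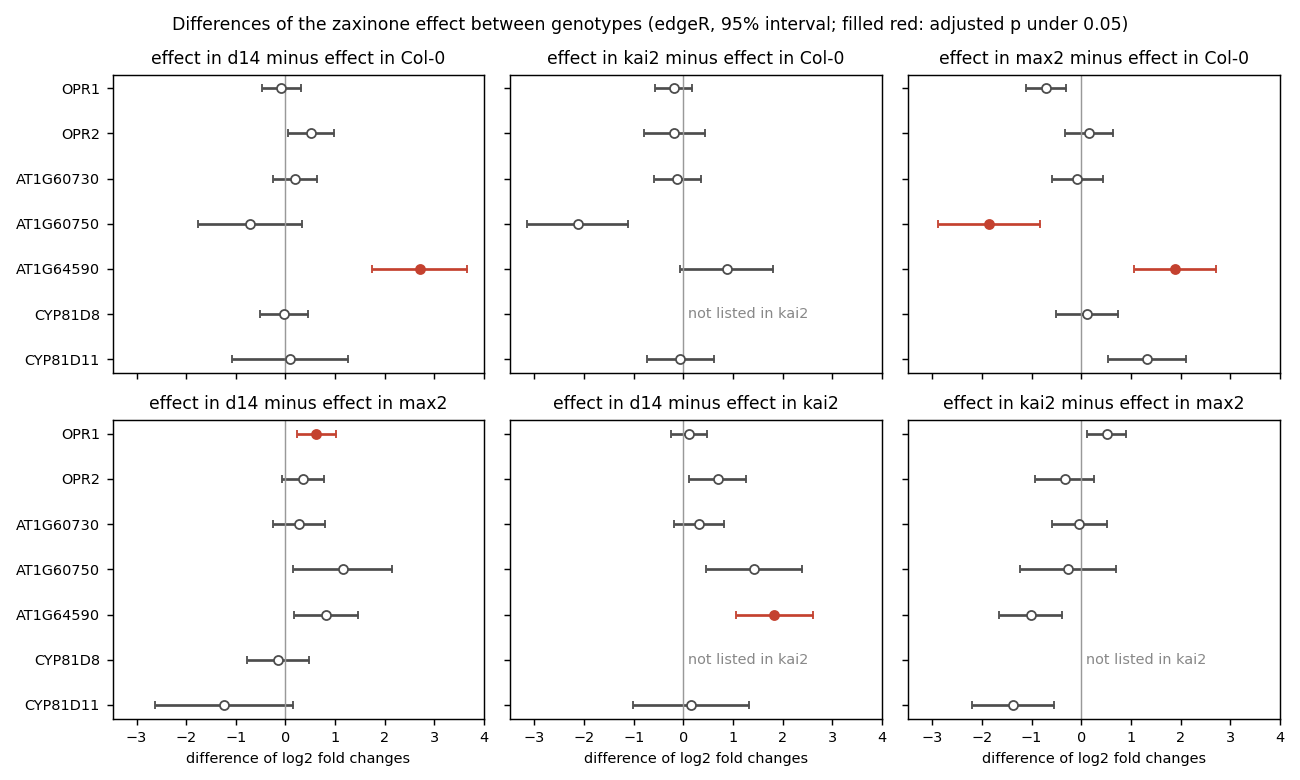
Difference of the log2 fold change between genotypes for each gene, with 95% intervals, in 6 pairs of genotypes; filled red points had an edgeR adjusted p under 0.05. AT1G64590 is filled in d14 minus Col-0 (2.70), max2 minus Col-0 (1.89) and d14 minus kai2 (1.83), and the intervals of AT1G60730 span 0 in all 6 panels.

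For AT1G60730, CYP81D8 and OPR2 no pair of genotypes gave a called difference. The differences of AT1G60730 ranged from -0.12 to 0.31 and those of CYP81D8, in 3 pairs, from -0.15 to 0.12. OPR2 ranged from -0.33 to 0.69, and its d14 effect had intervals above 0 against Col-0 (0.046 to 0.98) and kai2 (0.12 to 1.27) without passing the adjustment (edgeR adjusted p = 0.166 and 0.172). The intervals of CYP81D8 reached from -0.77 to 0.75, so a moderate difference between genotypes would have been missed.

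The mock libraries show where each gene started. Against Col-0 mock, 2 of 7 members were called in d14, where 21.1% of genes were, 1 of 6 in kai2 (12.6%) and 2 of 7 in max2 (28.7%), shares close to those of all genes. CYP81D11 was lower in max2 mock roots by -1.94 ± 0.29 (edgeR adjusted p = 1.9e-04), which passed under all 22 alternatives. In d14 mock roots CYP81D11 had a difference of -0.51 ± 0.41 (edgeR adjusted p = 0.389). Without d14 mock replicate 4, the highest of that group, the difference was -1.35 and passed (edgeR adjusted p = 0.0045). That was the only 1 of 16 leave-out fits to gain the call, and the library is not among those flagged below. AT1G60750 was higher in kai2 mock roots by 1.62 ± 0.38 (edgeR adjusted p = 0.0119), again under all 22 alternatives. AT1G60750 was also called higher in max2 mock roots at 1.07 ± 0.39 (edgeR adjusted p = 0.0451), a call lost under 14 of 22 alternatives. In d14 mock roots AT1G60730 was lower by -0.57 ± 0.15 (edgeR adjusted p = 0.0125, and 0.0505 without Col-0 mock replicate 4) and OPR1 by -0.39 ± 0.13 (edgeR adjusted p = 0.0419), the latter lost under 8 of 22 alternatives. AT1G64590 had mock differences of -0.088 ± 0.32 in d14, -0.41 ± 0.32 in kai2 and 0.22 ± 0.28 in max2, none of them called.

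The paired genes were compared within each library, a measure chosen after their values had been seen. The FPKM ratio of OPR1 over OPR2 was 1.72 to 2.25 in Col-0 mock and 3.84 to 4.68 in Col-0 zaxinone libraries. In log2 units the ratio was higher with zaxinone by 1.09 in Col-0, 0.52 in d14 and 1.03 in kai2 (exact 2-sided permutation test, p = 0.0286 each, the smallest that 4 against 4 libraries allow, and 0.0327 after Benjamini-Hochberg adjustment over 8 ratios). In max2 the difference was 0.23 (exact permutation p = 0.114). The ratio was chosen on these same values and follows from the fold changes above, so these p-values add no support. The ratio in the kai2 mock libraries ran from 0.687 to 1.88, lowest in replicate 1, and without that library the kai2 difference was 0.72. Both genes rose in all genotypes, and the estimated rise of OPR1 was the larger in each. Whether the ratio moved less in max2 than in the other genotypes was not tested.

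AT1G60750 over AT1G60730 moved much further. The ratio was 0.00474 to 0.0228 in Col-0 mock libraries and 0.326 to 0.664 with zaxinone. In log2 units it was higher by 5.46 in Col-0, 4.67 in d14, 3.46 in kai2 and 3.67 in max2 (exact permutation p = 0.0286 each, adjusted 0.0327). Because AT1G60750 rose far more than AT1G60730 in these same libraries, the separation followed from the fold changes above. The p-values here add no support. With zaxinone the ratio reached a like range in the 4 genotypes, 0.296 to 0.668 over all 16 libraries, and in each of them AT1G60730 remained the more abundant per length.

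**Figure D4:**
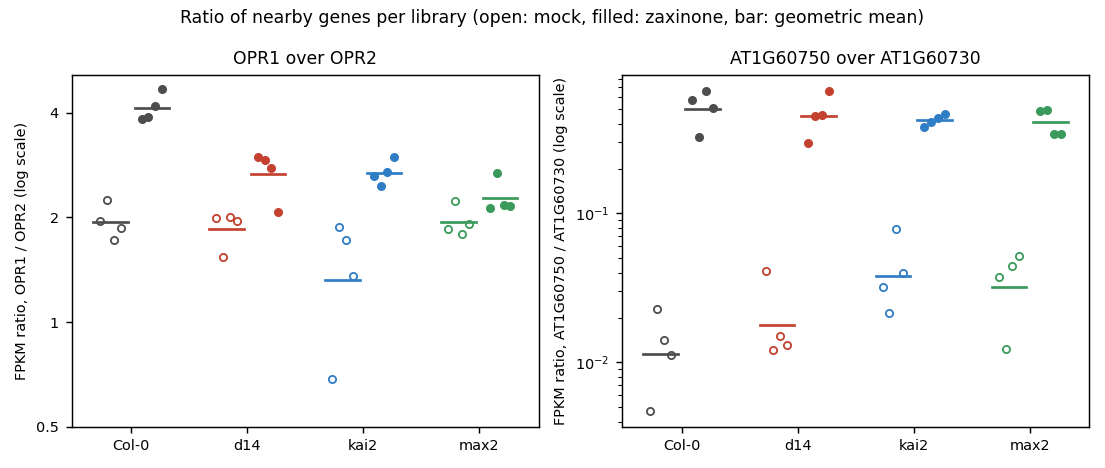
FPKM ratio of OPR1 over OPR2 and of AT1G60750 over AT1G60730 in each library on log axes, open for mock and filled for zaxinone, with bars at the geometric mean of 4. The OPR ratio reaches 3.84 to 4.68 in Col-0 with zaxinone and overlaps between treatments in max2, and the aldo-keto reductase ratio is at most 0.0791 in every mock and at least 0.296 in every zaxinone library.

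In the wider families of these enzymes fewer genes were listed than not, and the unlisted ones were not analysed here. Of 4 other OPR family genes 1 was listed, AT1G09400, and it fell in all 4 tables by log2 fold changes from -1.74 to -1.27 in the authors' deposited tables. Of 19 other aldo-keto reductase genes 3 rose in Col-0, d14 and max2 and 2 in kai2, with 1 lower in d14. ChlAKR, a plastid aldo-keto reductase that detoxifies reactive carbonyls, had deposited log2 fold changes of 5.56 in Col-0, 2.87 in d14, 3.47 in kai2 and 4.64 in max2. Of 16 other CYP81 genes 3 rose in Col-0, d14 and max2 and 2 in kai2, and 1 fell in max2. CYP81F2, which modifies indole glucosinolates, rose by 1.36, 1.84, 1.19 and 1.45 in the authors' deposited tables, and CYP81H1 by 1.42, 3.26, 1.03 and 2.21. Of 7 other short-chain dehydrogenases of the clade of AT1G64590 1 rose in Col-0, 1 fell in d14 and 1 in max2, and in kai2 0 were listed.

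Genes of the later steps of detoxification were listed mostly as higher. Of 39 glutathione transferase genes 14 rose in Col-0, 17 in d14, 12 in kai2 and 15 in max2, and 1 fell, in d14. Of 16 UDP-glycosyltransferase genes chosen for a role in stress detoxification, 9, 10, 9 and 9 rose and 0 fell. UGT73B2, which glycosylates flavonols, had deposited log2 fold changes of 5.04, 6.09, 5.36 and 5.75 in the genotypes in that order, and GSTU24, a tau class glutathione transferase, 3.78, 4.34, 3.62 and 3.89. Of 8 transporters chosen for a role in detoxification, 4, 6, 5 and 4 rose. ABCG40, an ABC transporter known for abscisic acid uptake, had deposited log2 fold changes of 6.61, 5.45, 6.18 and 6.86. Of 12 regulators of xenobiotic and oxylipin responses 5 rose in each genotype, among them the NAC factor genes NAC032 (3.23, 3.82, 3.21 and 3.34) and ATAF1 (2.99, 3.98, 2.79 and 3.14). Jasmonate synthesis and response genes were mostly not listed: LOX3 rose by 3.40 in Col-0 alone of the 4 tables, the other 11 synthesis genes were in no table, and of 12 response genes 2 rose in each genotype while 1 fell in Col-0 and 2 in d14. These lists were chosen with earlier results of the same libraries known, and the counts stand beside the listed shares given above with no test of their own.

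**Figure D5:**
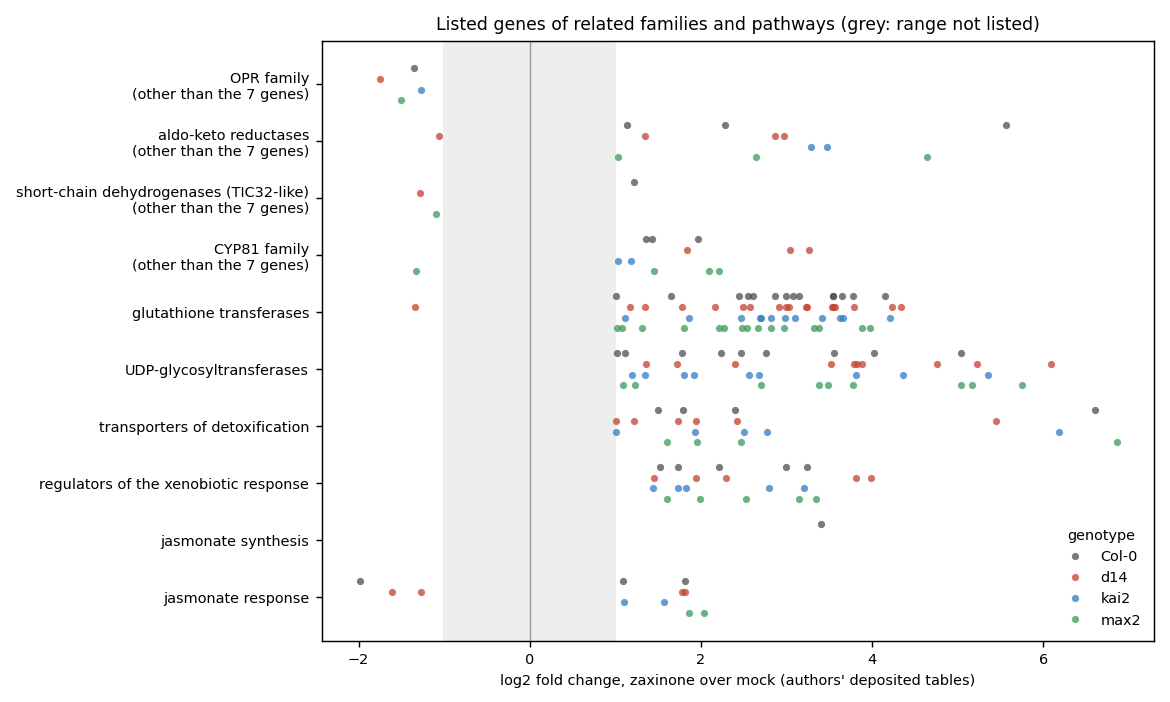
Deposited log2 fold changes of listed genes in related enzyme families and pathways, 1 point per gene and genotype, with the unlisted range from -1 to 1 in grey. The listed glutathione transferases and the listed genes among the glycosyltransferases, transporters and regulators chosen lie to the right, except for 1 glutathione transferase in d14. The only listed OPR family gene beside the members lies to the left in all genotypes.

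The genes whose profiles were most like the members' were found by correlation. Over 32 libraries, the mean profile of the 6 members listed in all tables was compared with 821 other genes listed in all tables. The highest Pearson correlations were those of UGT73B2 (0.994), the VQ motif gene AT1G17147 (0.993), ATAF1 (0.992), the glutathione transferase gene GSTU7 (0.992) and CYP72A13 (0.990). All points share the contrast of zaxinone and mock, on which every one of these genes was listed, so the values describe that contrast and have no test.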

How the data were processed

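Root libraries of 8 groups, 4 each, were read as deposited in 4 tables, 1 per genotype. Polyadenylated RNA was sequenced as paired ends, per the labels' protocols, and the submitters' processing notes name HISAT2 and StringTie, with no version. Per the file headers, the tables hold raw counts, normalized counts (a signal on the count scale), FPKM, and the authors' log2 fold change with its p-value before and after adjustment. Which genome build and counting tool were used is not given in the sources used here. For 58928 of 58928 values of a gene in a library, the length implied by count and FPKM matched the exon length in RefSeq TAIR10.1, which was used for coordinates. The normalized column of 1 Col-0 zaxinone library held a constant and was not used, and its factor came from the authors' group mean.

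The authors' deposited calls are the result of each zaxinone comparison, since tables of selected genes allow no test over all genes. The p-value ranks implied 25041 tested genes in Col-0, 24718 in d14, 24625 in kai2 and 24534 in max2. The quasi-likelihood test of edgeR 4.0.16, run in R 4.3.3 on deposited counts, gave sizes and SE with the authors' factors, adjusted by Benjamini-Hochberg over those numbers, and is no independent test there. Differences between genotypes, and mock against mock, used the 16 libraries, library totals recovered from counts and FPKM, and genes listed in both tables. Unlisted genes were not analysed here. Listed genes held 4.63 to 13.3% of a library's fragments. Replicate libraries differed beyond sampling noise (chi-square per degree of freedom 16.0 to 275) and were all kept. Whether they stem from separate cultures is not in the labels, and p-values then cover only the spread between libraries.

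All 7 members are named, up to 3 genes from each pathway list (those in most tables, then with the largest mean absolute deposited log2 fold change), and the 5 genes most like the members by Pearson correlation of log2(CPM + 1). The text gives fewer than this rule allows. Members and lists were chosen with earlier results of these data known. Alternatives were DESeq2 1.42.0, TMM, other library scales, a mean count of at least 10, each library left out, a joint fit of all libraries and a replicate block. The scripts were tested on simulated data. Promoter windows are the 250 bases before a RefSeq gene start.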

Additional observations from a re-analysis of the deposited data

Results flagged for a closer look

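Among the 54 groups of 4 libraries, 3 had a member's level in 1 library far from the other 3, where chance gives about 2.7. OPR1 stood at 8.14 FPKM in Col-0 mock replicate 3 with the others at 6.49 to 6.73. OPR2 stood at 2.54 in d14 mock replicate 1 with the others at 2.95 to 3.02. CYP81D11 stood at 2.25 in kai2 mock replicate 4 with the others at 1.15 to 1.31. In each case the zaxinone libraries of that genotype lay far above the library concerned.

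A further 5 results are differences of the zaxinone effect between genotypes that passed the edgeR test of the difference itself. For AT1G64590 the effect was larger in d14 than in Col-0 by 2.70, larger in max2 than in Col-0 by 1.89 and larger in d14 than in kai2 by 1.83 on the log2 scale. For AT1G60750 the difference of max2 from Col-0 was -1.86, and for OPR1 the effect in d14 exceeded that in max2 by 0.62. The calls of AT1G64590 passed under all 22 alternatives each, and the calls of AT1G60750 and OPR1 were lost under 13 and 12 of 22. The 3 calls of AT1G64590 share libraries of Col-0 and d14 and are not independent of each other.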

How the results depend on the processing

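The zaxinone effects on the members kept direction and call in 370 of 375 recomputations, lost the call in 5 and reversed in 0, and the 5 are given above. Of differences of the effect, 775 of 855 recomputations kept direction and call, 25 lost it, 22 gained it and 33 reversed, and of mock differences 388 of 438, 23, 11 and 16; 0 of the reversals touched a called result. Reversed without leaving out a library were d14 minus Col-0 with TMM (CYP81D11 -0.12, AT1G60730 -0.013), mock max2 minus Col-0 for AT1G64590 with TMM (-0.043), and, with the authors' factors, mock differences of AT1G60750 in d14 (-0.38), CYP81D11 (-0.36) and OPR2 (-0.20) in kai2 and AT1G64590 in max2 (-0.44). The authors' factors are set within each table, so between tables they drop the difference in depth; they moved the median mock difference of all genes by -0.49, -0.66 and -0.66 and called 4, 4 and 5 members in d14, kai2 and max2, against 2, 1 and 2. DESeq2 called 1, 4, 2 and 2 members in kai2 against Col-0, max2 against Col-0, d14 against kai2 and kai2 against max2, where edgeR called 0, 2, 1 and 0. The fit of all libraries called 1 in kai2 against Col-0, and TMM called 0 in d14 against max2. The cause of these shifts in calls was not tested.

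With 1 library left out, sign changes gave these ranges for results that were not called: d14 minus Col-0, CYP81D11 -0.18 to 0.93 and CYP81D8 -0.11 to 0.056; kai2 minus Col-0, CYP81D11 -0.22 to 0.20 and OPR2 -0.33 to 0.098; max2 minus Col-0, AT1G60730 -0.21 to 0.023 and CYP81D8 -0.081 to 0.26. They were CYP81D11 -0.12 to 0.99 for d14 minus kai2, CYP81D8 -0.30 to 0.046 for d14 minus max2, and AT1G60730 -0.15 to 0.083 and AT1G60750 -0.53 to 0.018 for kai2 minus max2. For mock differences they were AT1G60750 -0.45 to 0.38 and AT1G64590 -0.24 to 0.065 in d14, AT1G60730 -0.20 to 0.012 in kai2, and OPR1 -0.077 to 0.065 and OPR2 -0.11 to 0.13 in max2. Members called then ran from 0 to 1 in kai2 against Col-0, 1 to 3 in max2 against Col-0, 0 to 2 in d14 against max2, 1 to 2 in d14 against kai2, 0 to 1 in kai2 against max2, and 0 to 2 and 1 to 2 for d14 and max2 mock. The OPR and aldo-keto reductase ratios, whose leave-out fits were added after seeing the data, kept their sign, with ranges in max2 of 0.15 to 0.30 and 3.21 to 3.90.

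Over all genes in the fit, DESeq2 called 158, 51, 87 and 55 differences where edgeR called 103 (d14 against Col-0), 27 (max2 against Col-0), 35 (d14 against kai2) and 27 (kai2 against max2). For kai2 against Col-0 edgeR called 0, DESeq2 18, the fit of all libraries 6 and TMM 2. The fit of all libraries called 56 in d14 against kai2, and the authors' factors 504 and 450 mock differences in d14 and kai2 against 272 and 143. With 1 library left out the counts ran from 42 to 160 for d14 and 0 to 9 for kai2 against Col-0, from 61 to 167 for d14 against max2, from 17 to 50 for d14 against kai2, from 12 to 27 for kai2 against max2, and from 41 to 154 for kai2 mock.

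Same-numbered replicates had correlations from -0.25 to 0.28, over 0.1 in 5 of 16 pairs. With 4 libraries per group this cannot settle whether the numbers pair the libraries, and the main fits did not pair them. With the replicate number as a block the members called were 1 in max2 against Col-0 and 0 in d14 against max2, 1 in d14 mock and 1 in max2 mock, and genes called were 2 in kai2 against Col-0 and 14 in kai2 against max2. The block ended 4 calls, AT1G60750 in max2 against Col-0 (-1.86, adjusted p = 0.0871), OPR1 in d14 against max2 (0.63, adjusted p = 0.0696), OPR1 in d14 mock (-0.39, adjusted p = 0.0584) and AT1G60750 in max2 mock (1.07, adjusted p = 0.0675), and changed no other. AT1G60750 in mock libraries rests on 9 to 68 counts, which limits the precision of its fold changes.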
